A study of Mus musculus with 4 samples.

Results

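The genes of 10 transcription factors that direct B cell development and fate (Pou2f2, Pou2af1, Pax5, Ebf1, Irf4, Irf8, Spi1, Bcl6, Prdm1 and Foxo1) were searched for peaks of MIZ-1, a zinc finger transcription factor also called ZBTB17. The genes were listed by name, Pou2f2 because the study names it, and each locus ran from 2000 bp before to 1000 bp after every annotated start (the promoter window) and through the gene body. Of 34209 peaks in the MIZ-1WT list, 13 lay in these 10 loci, and of 78357 peaks in the MIZ-1DPOZ list, 36 did. The peaks came from chromatin immunoprecipitation and sequencing (ChIP-seq) with the H-190 antibody against MIZ-1 on B220+ spleen cells. B220 is a surface marker of the B lineage. The MIZ-1WT cells carried wild-type Miz-1. The MIZ-1DPOZ cells came from MB1-cre X Miz-1floxedPOZ mice, in which Cre, driven by the B lineage gene Mb1 (Cd79a), removes the POZ domain, the part of MIZ-1 through which the protein contacts itself and its partners, while the zinc fingers that bind DNA remain. The lines were kept on a C57BL/6 background. The study's methods give an age range for its animals in general, and no source used here gives the age of the animals behind these libraries or says whether animals were pooled. Each genotype had 1 ChIP library and 1 input library, so no test of a difference was possible, and every difference below is one between these libraries. Neither the deletion nor the identity of the sorted cells can be checked from peak lists.

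Ebf1, Pax5, Spi1 (which encodes PU.1) and Foxo1 act early: EBF1 specifies B cells, PAX5 commits them and holds their identity, PU.1 is shared with the myeloid lineage, and FOXO1 turns on B cell genes until signalling through PI3K removes it from the nucleus. Pou2f2 (OCT2) and its coactivator Pou2af1 (OCA-B) act through the octamer element of immunoglobulin promoters. IRF8 and BCL6 belong to follicular and germinal centre B cells, while IRF4 and PRDM1 (BLIMP-1) drive plasma cells, and BCL6 and BLIMP-1 repress each other's genes.

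The following stretches of the mouse genome (GRCm38, the same assembly as mm10, plus strand, 5′ to 3′) cover up to 100 bp on each side of the best-scoring promoter summit of each gene in each list, and they show what kind of sequence lay under the peaks. Untranslated exon bases were left out, and with them the summit itself in both Irf8 lines and the MIZ-1WT line of Foxo1. Capitals mark a GC box (GGGCGG, or CCGCCC on the other strand), the element of Sp1-type factors, and in Prdm1 a CCAAT box (CCAAT or ATTGG), the element of NF-Y. In the first 4, peaks were called for MIZ-1DPOZ alone. In the last 6 lines, which cover 3 genes, both lists had a promoter peak. The full MIZ-1WT window of Foxo1 held a GC box and a CCAAT box, neither of them whole in the printed bases. The Bcl6 windows are shifted by 15 bp, and the GC box at the edge of the MIZ-1WT window runs past the end of the better-scoring MIZ-1DPOZ window.
Pou2f2, MIZ-1DPOZ, chr7:25133282-25133482: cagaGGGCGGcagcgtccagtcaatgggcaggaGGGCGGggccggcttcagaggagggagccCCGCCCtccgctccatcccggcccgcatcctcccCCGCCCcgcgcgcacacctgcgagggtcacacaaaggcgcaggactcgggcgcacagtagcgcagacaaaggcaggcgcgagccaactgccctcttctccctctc
Pax5, MIZ-1DPOZ, chr4:44710840-44711040: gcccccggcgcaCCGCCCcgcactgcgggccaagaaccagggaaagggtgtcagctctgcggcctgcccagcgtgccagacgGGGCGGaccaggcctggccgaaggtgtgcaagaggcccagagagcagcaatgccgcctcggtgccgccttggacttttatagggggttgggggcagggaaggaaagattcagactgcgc
Ebf1, MIZ-1DPOZ, chr11:44618252-44618452: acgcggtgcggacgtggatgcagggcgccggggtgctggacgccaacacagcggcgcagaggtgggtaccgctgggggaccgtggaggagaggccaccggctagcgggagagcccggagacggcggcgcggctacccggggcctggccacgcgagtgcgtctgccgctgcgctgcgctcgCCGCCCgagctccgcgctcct
Prdm1, MIZ-1DPOZ, chr10:44458749-44458907: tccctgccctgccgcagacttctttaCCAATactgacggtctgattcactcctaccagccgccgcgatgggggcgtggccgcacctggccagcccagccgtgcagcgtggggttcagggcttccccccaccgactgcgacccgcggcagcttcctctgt
Irf8, MIZ-1WT, chr8:120736279-120736357: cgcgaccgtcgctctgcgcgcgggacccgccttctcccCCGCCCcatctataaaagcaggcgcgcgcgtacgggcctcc
Irf8, MIZ-1DPOZ, chr8:120736261-120736357: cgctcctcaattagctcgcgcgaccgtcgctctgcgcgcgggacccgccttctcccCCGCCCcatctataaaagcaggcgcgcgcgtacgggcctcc
Bcl6, MIZ-1WT, chr16:23987930-23988130: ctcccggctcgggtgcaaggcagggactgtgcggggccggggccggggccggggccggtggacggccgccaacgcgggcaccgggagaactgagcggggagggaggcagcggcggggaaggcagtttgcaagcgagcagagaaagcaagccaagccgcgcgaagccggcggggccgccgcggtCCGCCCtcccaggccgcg
Bcl6, MIZ-1DPOZ, chr16:23987915-23988115: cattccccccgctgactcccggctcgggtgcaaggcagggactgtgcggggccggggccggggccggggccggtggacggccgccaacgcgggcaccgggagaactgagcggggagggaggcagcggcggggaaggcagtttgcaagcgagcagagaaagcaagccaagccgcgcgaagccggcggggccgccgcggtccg
Foxo1, MIZ-1WT, coding bases, chr3:52268802-52268880: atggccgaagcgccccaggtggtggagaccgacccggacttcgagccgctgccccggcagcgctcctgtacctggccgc
Foxo1, MIZ-1DPOZ, chr3:52269026-52269226: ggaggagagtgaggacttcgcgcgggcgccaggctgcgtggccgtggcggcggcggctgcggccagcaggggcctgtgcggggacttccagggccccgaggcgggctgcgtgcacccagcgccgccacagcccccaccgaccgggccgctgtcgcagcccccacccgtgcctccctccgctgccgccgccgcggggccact

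In the MIZ-1WT list, the promoter windows of Irf8, Bcl6 and Foxo1 held a peak. These 3 genes of 10 (30.0%, 95% Wilson interval 10.8 to 60.3) stood at the background, since 30.9% of all 21951 protein-coding genes had a MIZ-1WT promoter peak. In the MIZ-1DPOZ list, the same 3 genes had a promoter peak, and Pou2f2, Pax5, Ebf1 and Prdm1 had one too. This made 7 of 10 genes (70.0%, 39.7 to 89.2), beside 48.7% of protein-coding genes, a share that lies within the interval. The count depended on cutoffs. At a −log10 q or a fold enrichment of 5 or more, or with the MIZ-1DPOZ list held to the length of the MIZ-1WT list, it was 3, without Pou2f2, Ebf1, Irf8 and Prdm1. The whole MIZ-1DPOZ list had medians of 5.05 and 5.11 for these scores, so both minima remove many of its peaks. The share of protein-coding genes under these settings was not computed, so weak peaks are not shown to be particular to these genes. At the q minimum the MIZ-1WT count was 2, without Bcl6. Both lists had a promoter peak in 3 of the 10 genes (26.6% of protein-coding genes), and the MIZ-1DPOZ list alone had one in 4 (95% interval 16.8 to 68.7%, beside 22.0%). Pou2af1, Irf4 and Spi1 had none in either list (47.1% of protein-coding genes). No gene had one in the MIZ-1WT list alone (4.23% of protein-coding genes), but under these stricter settings Irf8 did, since its MIZ-1WT peak was kept. Intervals given here and below cover counting error only.

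**Figure D1:**
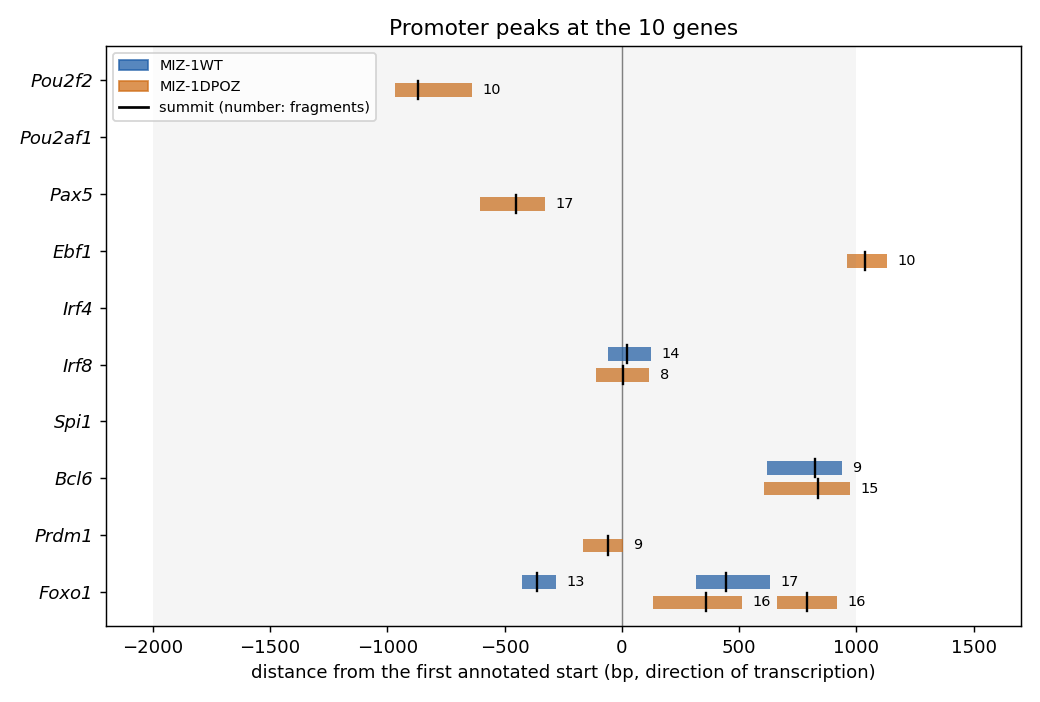
Promoter peaks by distance from the first annotated start of each gene, in bp along the direction of transcription. Bars span the deposited peaks of the MIZ-1WT and MIZ-1DPOZ lists, black lines mark summits, numbers give the fragments over the summit, and shading marks the window from 2000 bp before to 1000 bp after the start. Pou2f2, Pax5, Ebf1 and Prdm1 have a MIZ-1DPOZ bar alone, and Irf8, Bcl6 and Foxo1 have bars of both lists.

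Peaks are described by the authors' fold enrichment at the summit over local background, by the −log10 of the q-value, and by the number of fragments piled up over the summit, which was solved from these scores. Pileups were low throughout the deposited lists, at a median of 9 fragments (MIZ-1WT) and 12 fragments (MIZ-1DPOZ). The MIZ-1DPOZ library was 1.34 times deeper by its background. In the 10 loci, MIZ-1WT pileups ranged from 7 to 17 (median 12) and MIZ-1DPOZ pileups from 7 to 28 (median 12).

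Among the lineage genes, Pax5 on chromosome 4 (186 kb, minus strand, 44524757 to 44710487) held the most peaks of the 10 genes, 4 for MIZ-1WT and 10 for MIZ-1DPOZ. Its promoter peak, in the MIZ-1DPOZ list alone, had its summit 453 bp before the start, a 7.09-fold enrichment, a −log10 q of 10.1 and 17 fragments. It was the second-best score of the 36 peaks, above that of 82.2% of the whole MIZ-1DPOZ list. The closest MIZ-1WT summit lay 6633 bp away. That peak stood in intron 1, 6101 bp after a start, with 12 fragments, 6.48-fold enrichment and a −log10 q of 6.35, the highest at Pax5 in this list. A MIZ-1DPOZ peak with 12 fragments and 5.19-fold enrichment lay close to it, 6727 bp after the start, without overlapping it, and both summits fell in the unconfirmed transcript 5730488B01Rik.

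At 2 places inside Pax5 the lists overlapped. In intron 5 the pileups were 9 fragments for MIZ-1WT and 14 for MIZ-1DPOZ, with summits 40 bp apart, next to the start of the antisense RNA Gm12462. In intron 8 they were 11 and 12 fragments, with summits 151 bp apart. The other MIZ-1WT peak, in intron 3, had 7 fragments, the fewest of the 13. The remaining 6 gene-body MIZ-1DPOZ peaks, without the one in intron 1, stood in introns 5 to 8 with 10 to 13 fragments each.

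Ebf1 on chromosome 11 (391 kb, plus strand, 44617317 to 45008091) held 2 MIZ-1WT and 7 MIZ-1DPOZ peaks, and no peak of one list overlapped a peak of the other. The MIZ-1WT peak at chr11:44935867-44936095, in intron 10 and 318654 bp after the start, had the best score of the 13: 16 fragments, 9.14-fold enrichment and a −log10 q of 11.7. Its surroundings differed from those of the other high-scoring peaks, with a GC content of 39.8%, 1 CpG in the window of 100 bp to each side of the summit (the summit window) and 73.1% of bases masked as repeats, although the sequence occurs once in the genome. The second MIZ-1WT peak, in intron 6, had 9 fragments and 5.38-fold enrichment. The MIZ-1DPOZ promoter peak at chr11:44618277-44618449, which also lay in the promoter window of the gene Gm37695, touched the Ebf1 window with its edge. Its summit stood 1035 bp after the start, in intron 1, with 10 fragments, 4.68-fold enrichment, a −log10 q of 4.19 and 30 CpGs. The closest MIZ-1WT summit was 3982 bp from it, 2.9 kb before the start and outside the locus, with 8 fragments and 4.77-fold enrichment. The best MIZ-1DPOZ score at Ebf1, a −log10 q of 6.66 with 13 fragments, belonged to a peak in intron 6. Its summit window was fully masked as a repeat, with a summit sequence found 2995 times in the genome. The peak next to it was of the same kind (13923 copies).

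Spi1 on chromosome 2 (19.7 kb, plus strand, 91096096 to 91115756) had no promoter peak but 1 pair of overlapping peaks in its 3′ UTR, more than 19 kb after the start and 20 bp apart at their summits. The MIZ-1WT peak had 16 fragments, 8.17-fold enrichment and a −log10 q of 10.2, above 95.9% of its list. The MIZ-1DPOZ peak had 10 fragments, 4.24-fold enrichment and a −log10 q of 3.58, above 22.9% of its list. The nearest annotated start was not that of Spi1 but that of the next gene, Mybpc3, 2517 bp from the MIZ-1WT peak. Outside the locus, a MIZ-1WT summit with 6 fragments and 3.76-fold enrichment lay 4.2 kb before the Spi1 start.

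Foxo1 on chromosome 3 (84.9 kb, plus strand, 52268336 to 52353221) held 3 MIZ-1WT and 2 MIZ-1DPOZ peaks, and all 5 summits stood between 361 bp before and 1533 bp after the start. It was the gene with more MIZ-1WT than MIZ-1DPOZ peaks. The MIZ-1WT peaks had 13 fragments at 361 bp before the start, 17 at 444 bp after it in the 5′ UTR and 13 in intron 1. Their fold enrichments were 5.36, 6.97 and 5.51. The MIZ-1DPOZ peaks had 16 fragments at 361 bp after the start in the 5′ UTR and 16 at 790 bp after it in coding sequence, with enrichments of 5.65 and 5.69. The peaks in the 5′ UTR overlapped, with summits 83 bp apart. The other 3 did not overlap. The closest summit of the other list was 722 bp from the upstream MIZ-1WT peak and 346 bp from the coding MIZ-1DPOZ peak. The 17 fragments were the highest MIZ-1WT pileup at the 10 genes. The other 4 peaks, without the upstream MIZ-1WT peak, also lay in the promoter window of the antisense RNA Gm20402, so they cannot be given to one of the genes alone.

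Of the octamer genes, Pou2f2 on chromosome 7 (45.2 kb, minus strand, 25087344 to 25132512) held 1 MIZ-1WT and 8 MIZ-1DPOZ peaks, and none overlapped. Its promoter peak at chr7:25133151-25133478, in the MIZ-1DPOZ list alone, had its summit 870 bp before the start. It was weak, with 10 fragments over a background of 2.23, a 3.40-fold enrichment and a −log10 q of 2.44, above that of 4.15% of the list. The closest MIZ-1WT summit was 16643 bp away. The single MIZ-1WT peak of Pou2f2 stood in a coding exon, 34718 bp after the start and 500 bp from the start of the microRNA gene Mir6537, with 10 fragments and 4.36-fold enrichment.

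The best score of the 36 MIZ-1DPOZ peaks also belonged to Pou2f2. This peak in intron 5, chr7:25111320-25111698, had 28 fragments, 7.36-fold enrichment and a −log10 q of 15.4. Its summit window was fully masked as a repeat and its sequence occurs 12 times in the genome. The other 6 peaks of the gene body ranged from 7 to 19 fragments in single-copy sequence. Background was high at Pou2f2, from 1.35 to 2.94 fragments in the MIZ-1DPOZ list, where 1.35 was the usual value. Per 100 kb of locus, Pou2f2 held more MIZ-1DPOZ peaks than any other of the 10 genes, followed by Irf8 (13.4) and Bcl6 (11.6), and it held 2.12 MIZ-1WT peaks.

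Pou2af1 on chromosome 9 (26.4 kb, 51213708 to 51240079) had no peak in either list. The closest summits lay 64.9 kb from its start for MIZ-1WT and 53.8 kb for MIZ-1DPOZ. Irf4 on chromosome 13 (17.8 kb, 30749226 to 30766976), a factor of plasma cells, had no peak either, and its closest summits, a pair of overlapping peaks of the lists, were 89.2 and 89.1 kb away.

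Irf8 on chromosome 8 (20.3 kb, plus strand, 120736358 to 120756694) had the summits closest to a start among the 10 genes. The MIZ-1WT summit stood 21 bp and the MIZ-1DPOZ summit 3 bp after the start, 18 bp apart, in the 5′ UTR. The read-through gene Gm20388 spans the whole locus and starts elsewhere. The MIZ-1WT peak had 14 fragments, 8.06-fold enrichment and a −log10 q of 9.29, above 94.6% of its list. The MIZ-1DPOZ peak had 8 fragments, 3.45-fold enrichment and a −log10 q of 2.14, above 2.82% of its list. A strong peak of the MIZ-1WT list therefore faced one of the weakest of the MIZ-1DPOZ list. The MIZ-1DPOZ list had 2 more Irf8 peaks, each with 11 fragments, in intron 2 and in the 3′ UTR.

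Bcl6 on chromosome 16 (23.8 kb, minus strand, 23965052 to 23988852) had the higher score and pileup in the MIZ-1DPOZ list. After depth scaling, given below, the ratio intervals of both the Irf8 and the Bcl6 pair include 1. In intron 1, the MIZ-1WT summit stood 822 bp and the MIZ-1DPOZ summit 837 bp after the start. The MIZ-1WT peak had 9 fragments, 5.17-fold enrichment and a −log10 q of 3.94, above 51.8% of its list. The MIZ-1DPOZ peak had 15 fragments, 6.81-fold enrichment and a −log10 q of 8.91, above 76.7% of its list. Both peaks stood closer to the start of the predicted gene Gm37419 than to that of Bcl6. The MIZ-1DPOZ list had 2 further peaks in the gene, with 12 fragments in a coding exon and 11 in intron 1.

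Prdm1 on chromosome 10 (21.6 kb, minus strand, 44437177 to 44458748) had 2 MIZ-1DPOZ peaks and no MIZ-1WT peak. The promoter summit stood 59 bp before the start, with 9 fragments, 4.26-fold enrichment and a −log10 q of 3.37. A peak in a coding exon, 15909 bp after the start, had 12 fragments and 5.54-fold enrichment. The MIZ-1WT summit closest to the promoter peak was 63512 bp away, the largest such distance of the 7 genes with a promoter peak.

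**Figure D2:**
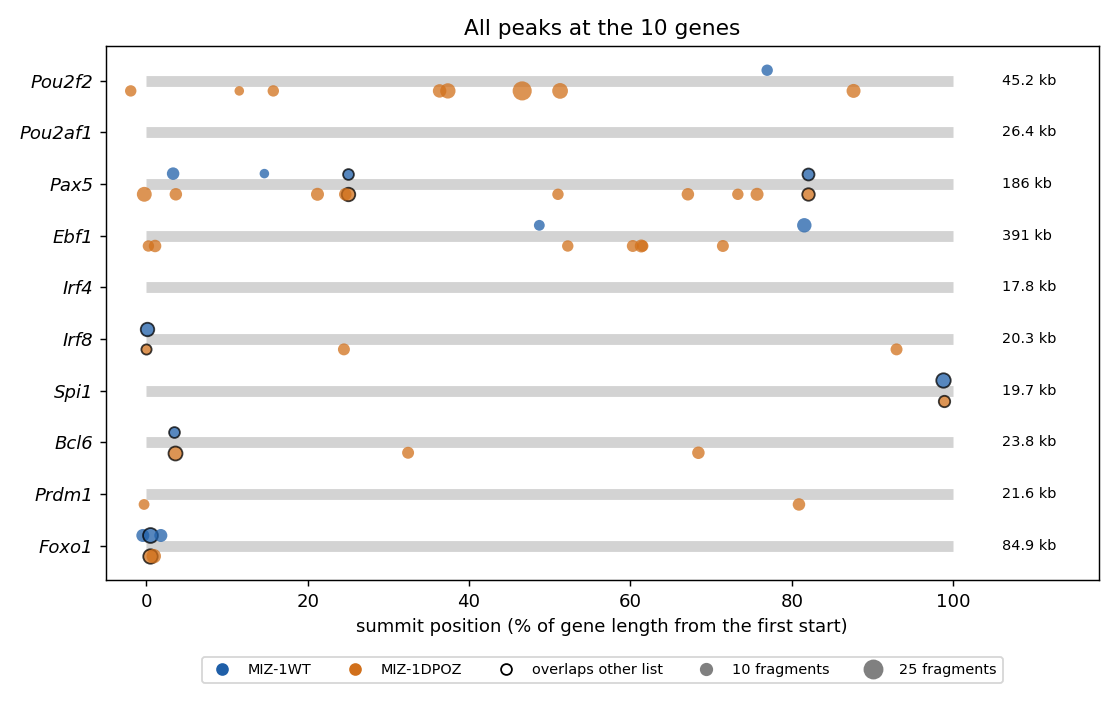
Summits of all 13 MIZ-1WT and 36 MIZ-1DPOZ peaks along the 10 genes, as a percentage of gene length from the first start, with gene length in kb at the right. Point area is proportional to the fragments over the summit, and black rims mark peaks that overlap the other list. Summits crowd at the start of Foxo1, spread over Pax5, Ebf1 and Pou2f2, and are missing at Pou2af1 and Irf4.

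By place, 8 of the 13 MIZ-1WT peaks and 24 of the 36 MIZ-1DPOZ peaks had their summit in an intron. The 10 loci held 1.52 MIZ-1WT and 4.21 MIZ-1DPOZ peaks per 100 kb, beside 1.61 and 3.55 over the loci of all protein-coding genes. The MIZ-1WT density was thus close to that of other genes. Without Pou2f2, Pax5 and Ebf1, no gene had more than 3 peaks in a list.

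Whether the lists marked the same sites in these genes was examined by overlap of at least 1 bp. Of the MIZ-1WT peaks, 6 of 13 (46.2%, 23.2 to 70.9) overlapped a MIZ-1DPOZ peak, beside 53.7% of the whole list. Of the MIZ-1DPOZ peaks, 6 of 36 (16.7%, 7.87 to 31.9) overlapped a MIZ-1WT peak, beside 22.1%. Overlap was found for 3 of 4 MIZ-1WT promoter peaks and for 3 of 9 in gene bodies, and for 3 of 8 MIZ-1DPOZ promoter peaks and 3 of 28 in gene bodies. Over the whole lists, shares were taken among single-copy peaks, at promoters and away from promoters, the latter including sequence between genes. The MIZ-1WT shares were 72.2% and 39.0%, and the MIZ-1DPOZ shares 38.4% and 12.1%. In both lists the share of promoter peaks that overlapped was above that of gene-body peaks at the 10 genes. Over the whole lists it was above that of all single-copy peaks away from promoters.

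At the 6 overlapping pairs, pileups were compared after division of the MIZ-1DPOZ value by the depth ratio of 1.34. Irf8 had 14 fragments for MIZ-1WT and 5.97 for MIZ-1DPOZ, a ratio of 0.426 (exact 95% interval 0.155 to 1.09, with the depth ratio held fixed). Spi1 had 16 and 7.46 fragments, a ratio of 0.466 (0.189 to 1.09). Foxo1 had 17 and 11.9, a ratio of 0.702 (0.332 to 1.48), and Pax5 intron 8 had 11 and 8.95, a ratio of 0.814 (0.329 to 2.04). These 4 were lower in the MIZ-1DPOZ library. Pax5 intron 5, with 9 and 10.4 fragments, and Bcl6, with 9 and 11.2, were higher, at ratios of 1.16 (0.468 to 3.04) and 1.24 (0.510 to 3.22). All 6 intervals include 1, so no difference at a single pair was larger than counting error. The median log2 ratio was −0.40 over the 6 pairs. It was 0.38 over all 18661 pairs of the lists and 0.06 over the 9403 pairs in single-copy sequence.

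**Figure D3:**
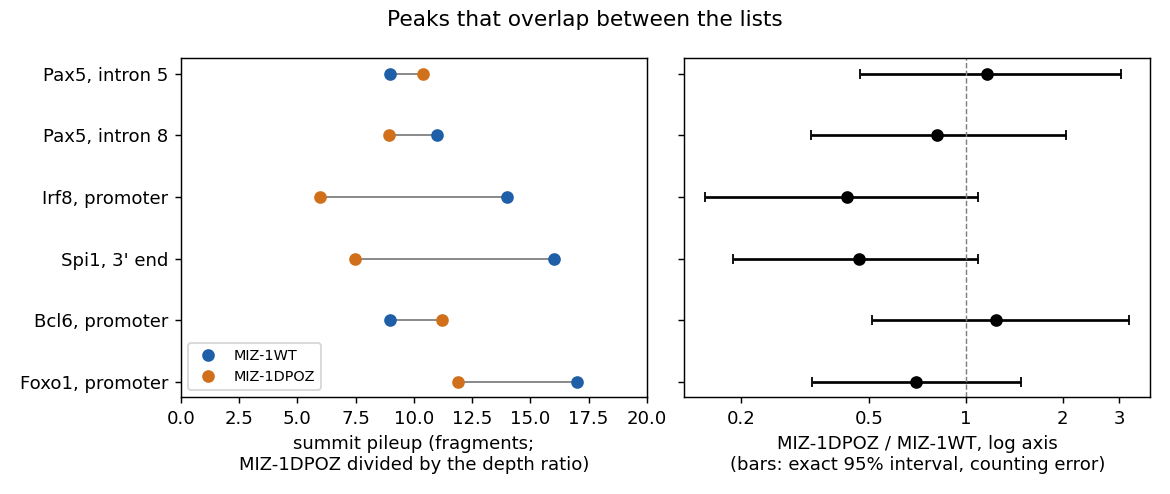
The 6 pairs of overlapping peaks. The left panel gives the fragments over the summit, with MIZ-1DPOZ divided by the depth ratio of 1.34, and the right panel the ratio of MIZ-1DPOZ to MIZ-1WT on a log axis with its exact 95% interval for counting error. The Irf8 and Spi1 ratios, 0.426 and 0.466, are the lowest, and every interval includes 1.

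Each peak found in a single list was scaled to the depth and background of the other library and set beside the smallest pileup called there at a similar background (within 5%). The 30 MIZ-1DPOZ peaks without a MIZ-1WT counterpart scaled to between 5.22 and 20.9 fragments, where the smallest MIZ-1WT pileups called were 5 to 8, and 30 of 30 reached this limit. The 7 MIZ-1WT peaks without a counterpart scaled to between 9.39 and 21.5 fragments, against limits of 6 to 9, and 7 of 7 reached it. Each limit is the lowest of many called peaks, and each peak compared was chosen because it was called in its own list. Reaching the limit was thus largely fixed in advance, and no conclusion is drawn from these counts. Against the median pileup called at the same background, the Pou2f2 promoter peak was lower, with 7.46 scaled fragments beside 11 in the MIZ-1WT list. The Ebf1 and Prdm1 promoter peaks, with 7.46 and 6.71 scaled fragments beside 8, were lower too. The Pax5 promoter peak, at 12.7 scaled fragments beside a median of 9, and the Ebf1 intron 10 peak of the MIZ-1WT list, at 21.5 beside 11, stood above that median. Both had among the best scores of their lists at the 10 genes, so this too was largely fixed in advance, and no conclusion is drawn from it. Deposited peaks do not give the fragments at these places in the other library, so a difference in occupancy there was not measured.

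Sequence composition, which the choice of genes did not use, was set beside that of the lists. Summit windows were rich in GC, with a MIZ-1WT median of 72.1% (whole list 60.7%, protein-coding loci 65.7%). The MIZ-1DPOZ median of 64.2% was closer to those of its whole list (60.2%) and of protein-coding loci (62.7%), and 10 of 13 and 25 of 36 lay above the median of their list. The median number of CpGs in this window was 22 for MIZ-1WT, beside 8 in the whole list and 12 in protein-coding loci. For MIZ-1DPOZ it was 9, beside 6 in the whole list and the same 9 in protein-coding loci. The 6 overlapping peaks of each list, 3 of them promoter peaks, had the narrowest range. It ran from 72.1% to 77.6% GC in the MIZ-1WT list and from 64.2% to 76.1% in the MIZ-1DPOZ list. The 7 and 30 peaks in a single list reached down to 39.8% and 40.3%, but a range widens with the number of peaks. Promoter peaks of the 10 genes had a median GC content of 76.1% and 74.6%, close to the 73.6% and 70.6% of all promoter peaks at protein-coding genes.

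Few of the peaks lay in repeats. For MIZ-1WT, 2 of 13 summit windows (15.4%, 4.33 to 42.2) were masked over more than 50% of their length, both of them at Ebf1, beside 60.3% of the whole list and 36.0% of the list within protein-coding loci. For MIZ-1DPOZ, 5 of 36 (13.9%, 6.08 to 28.7) were, beside 56.0% and 32.1%. Single-copy sequence lay under 13 of 13 MIZ-1WT summits and 33 of 36 MIZ-1DPOZ summits, beside 51.7% and 56.9% of the lists and 72.8% and 76.2% within protein-coding loci. The lower bounds of the intervals at the 10 genes, 77.2% and 78.2%, were close to the latter. The 3 exceptions were the repeat peaks of Pou2f2 and Ebf1 described above.

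**Figure D4:**
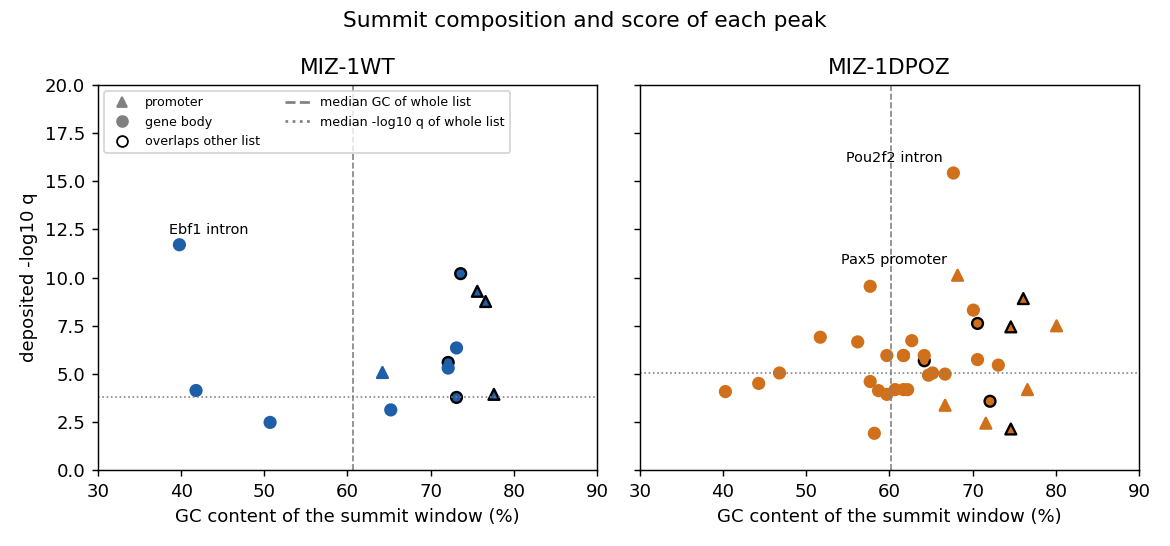
GC content of the summit window, 100 bp to each side, in percent against the deposited −log10 q, for the 13 MIZ-1WT peaks at the left and the 36 MIZ-1DPOZ peaks at the right. Triangles are promoter peaks, circles gene-body peaks, black rims mark overlap with the other list, and dashed and dotted lines give the medians of the whole list. Peaks with a black rim lie to the right of the dashed line in both panels, and the best MIZ-1WT score, at Ebf1, lies at 39.8% GC.

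Short sequence elements were searched for on both strands of the same windows. The GC box, visible in capitals in the sequences above, was in 7 of 13 MIZ-1WT windows (53.8%, whole list 26.8%) and in 13 of 36 MIZ-1DPOZ windows (36.1%, whole list 22.4%). Median GC content was lower in the whole lists, as given above, and its part in this difference was not tested. The GC box was in all 4 MIZ-1WT promoter windows and in 5 of 8 MIZ-1DPOZ promoter windows, beside 59.8% and 49.2% of the promoter peaks of the lists. The CCAAT box was in 2 of 13 and 6 of 36 windows (whole lists 25.6% and 25.1%), and CACGTG, the E box of MYC and MAX, in 1 of 13 and 2 of 36 (3.25% and 3.45%). In promoter windows alone, the CCAAT box was in 1 of 4 and 2 of 8, beside 11.1% and 12.2% of the promoter peaks of the lists. The octamer ATGCAAAT, through which OCT2 binds, was in no window of these genes (0.979% and 0.641% of the lists), and neither was ATCGAT, a short core given for MIZ-1 (0.497% and 0.355%). These elements do not contain one another. In 32851 RefSeq promoters of GRCm38 (250 bp before to 50 bp after the start) the GC box was found in 35.7%, the CCAAT box in 37.4%, the E box in 7.15%, the octamer in 1.74% and ATCGAT in 0.925%. Of the 10 genes, 9 were matched there, and 6 of the 9 held a GC box, 4 a CCAAT box, 1 an E box and none the octamer or ATCGAT.

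A further list of 37 genes of B cell factors, among them Ikaros, E protein, Ets, NF-κB and STAT genes, was counted for comparison. A MIZ-1WT promoter peak was present in 26 of 37 (70.3%) and a MIZ-1DPOZ promoter peak in 32 (86.5%), against the 30.9% and 48.7% of protein-coding genes given above. A gene counted if any of its annotated starts had a peak, and the number of starts was not matched to that of other genes. This list was also chosen with earlier results of these data known, so no preference of MIZ-1 for such genes is concluded. In both lists 26 genes had a peak, 6 in the MIZ-1DPOZ list alone and none in the MIZ-1WT list alone. The 5 without a promoter peak were Batf, Id3, Mef2b, Spib and Zbtb20, named after their values were seen. The best MIZ-1WT scores belonged to Tcf12, an E protein (−log10 q 14.2, 20 fragments), Ikzf1, which encodes Ikaros (9.61, 16 fragments), and the Ets factor Elf1 (9.29, 16 fragments). The best MIZ-1DPOZ scores belonged to Tcf12 (15.1, 23 fragments), Stat5b, a cytokine-driven factor (11.5, 20 fragments), and Pou2f1, the OCT1 gene related to Pou2f2 (10.9, 17 fragments). Pou2f1 had a promoter peak in both lists, with 9 fragments for MIZ-1WT, whereas that of Pou2f2 was called for MIZ-1DPOZ alone. The shares of the 10 genes, 30.0% and 70.0%, were below those of the larger list, and this difference was not tested.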

How the data were processed

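MIZ-1 ChIP-seq of B220+ splenocytes comprised 4 libraries, 1 ChIP and 1 input library for each genotype. Peaks had been called by the authors with MACS2 against input, separately for each genotype, on reads aligned to mm10. The study's methods name bwa as the aligner and another version of MACS2 than the submitters' processing notes, which list Bowtie2 2.2.6 and MACS2 2.1.0. How duplicates and multi-mapping reads were handled, and the cutoff on q, are not given in the sources used here. The deposited lists give, for each peak, the fold enrichment at the summit (a ratio to local background) and the −log10 of the p-value and q-value, as computed by the authors. The smallest −log10 q was 1.03 for MIZ-1WT and 1.01 for MIZ-1DPOZ. Reads and input libraries were not analysed here.

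Gene models were those of GENCODE basic on GRCm38 (55450 genes). Fragments over each summit and the local background were solved from fold enrichment and −log10 p under the formulas of MACS2. This failed for 20 peaks of the whole lists, none of them in the 10 loci. The depth ratio was the ratio of the most frequent backgrounds (0.860 and 1.35 fragments), each divided by the smallest peak width (148 and 173 bp). Copy number was the median genomic count of 5 sequences of 50 bases at the summit, and repeats were read from soft-masking. Scripts were tested on simulated data. With 1 library per group, shares carry 95% Wilson intervals and ratios exact binomial intervals, and no test was made. Every promoter peak of the 10 genes was described, with overlapping gene-body peaks and the best-scoring peak of each gene and list. The members, lists and rules were chosen with earlier results of these data known. Computations used Python 3.11.15 (pandas 2.3.3, numpy 2.4.6, numba 0.67.0 and scipy 1.17.1), and plots matplotlib 3.10.9.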

Additional observations from a re-analysis of the deposited data

How the results depend on the processing

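No paired analysis was possible because there was 1 ChIP library per genotype. The number of genes with a MIZ-1DPOZ promoter peak depended on the cutoffs. Under a −log10 q minimum of 5, under a fold enrichment minimum of 5, and when the list was held to the length of the MIZ-1WT list, it was 3 in place of 7, and in each case Pou2f2, Ebf1, Irf8 and Prdm1 lost their peak. It was 4 with a window of 500 bp on both sides of the start. Bcl6 lost its promoter peak in both lists under that window and when each peak counted for the nearest start alone. The MIZ-1DPOZ peaks in the 10 loci numbered 20 at either cutoff and 15 at equal list length. With the q minimum 8 MIZ-1WT peaks were left, and 23.1% of the 13 overlapped the other list at equal list length. Among single-copy summits, 6.06% of MIZ-1DPOZ peaks were repeats. Values over all protein-coding genes and the whole lists under the same settings are not given here. These changes are therefore not shown to be particular to the 10 genes. The median log2 pileup ratio stayed negative, at −0.63 when scaled by backgrounds, −0.25 from fold enrichments, −0.51 for summits within 100 bp and −0.40 for single-copy summits. Leaving out each pair in turn, an alternative chosen after seeing the data, gave −0.51 to −0.30. With few fragments per peak, depth limits every comparison of single peaks.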
